A study of Vitis vinifera with 3 samples.

Results

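The regions described here are short stretches of the grapevine genome whose cytosines in the CHH context were listed as differing between mature and véraison berries and were more methylated at maturity. They were chosen by the average levels in the authors' table of CHH regions for maturity against véraison: on the 19 numbered chromosomes, the level at maturity had to be above that at véraison. This gave 7425 regions out of 23823 in that table and 377997 in all 9 tables of the series. They were split by whether they shared at least 1 bp with a CHH region listed as higher at maturity than at first growth. Of the 7425, 4975 did and 2450 did not. Both tables use the same mature library, so a high reading in that library alone would place a region in both. The split is therefore a description, not 2 lines of evidence.

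The series holds bisulfite sequencing of berries of the grapevine Vitis vinifera, cultivar Fujiminori, with 1 library for each stage. The stages are first growth (40 days after flowering), véraison (65 days, when berries soften and colour) and maturity (90 days). No treatment or genotype differs between them, and the labels state pooling of berries for RNA only, so the number of berries or vines behind each DNA library is unknown. Since each stage is a single library, stages were not tested against each other, and the stage cannot be told apart from anything else that differed between the libraries, such as depth or bisulfite conversion.

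CHH sites, where H is A, C or T, have no matching cytosine on the other strand, so their methylation has to be set again after each DNA replication. In plants this is done by RNA-directed DNA methylation, in which small RNAs guide the methyltransferase DRM2, and by CMT2, which works mainly in heterochromatin. CHH methylation is found chiefly in transposons and other repeats. CHG methylation is kept up by CMT3 and CG methylation by MET1.

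The gains started from low levels. Over all 7425 regions, the median CHH level was 30% at maturity (quartiles 19 and 47) and 7% at véraison (quartiles 3 and 15), and the gain had a median of 21 percentage points (quartiles 14 and 31, 95% interval of the median over regions 21 to 22). These values chose the regions and are given without a test. At véraison 914 regions (12.3%) were listed at 0%, and at maturity 43 were listed at 100%, 5 of them with 0% at véraison. At maturity 1709 regions (23.0%) reached at least 50%.

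The regions higher at maturity made up 31.2% of the CHH regions in the table (percent of 23823), and the other 16398 were lower at maturity. The size of change was similar in both directions, with a median of 21 percentage points gained and -21 points where the level was lower. Gaining regions were short, with a median of 54 bp (range 41 to 227 bp), against 57 bp for regions lower at maturity. Their lengths summed to 458 kb, against 1066 kb for the lower ones, with bases shared by overlapping regions counted more than once.

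The lists carry visible limits. In every CHH region of this table whose lower level was at least 10%, the higher level was at least 1.90 times the lower one, and no lower level exceeded 50%. A gain that started above 50% at véraison could therefore not be seen here. Next to the threshold of the rule, the smallest gains were 2 percentage points, in 3 regions of 43 to 60 bp at 2 to 4% at maturity and 0 to 2% at véraison. The closest region on the other side, of 41 bp, had 1% at maturity and 3% at véraison.

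**Figure D1:**
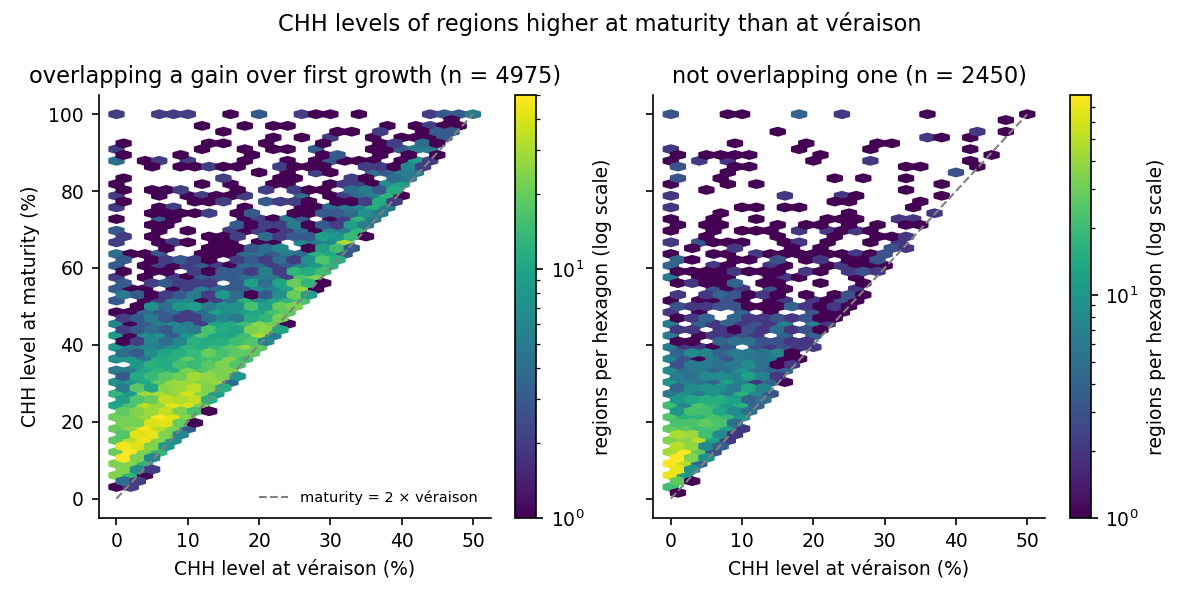
CHH level at maturity (vertical axis, %) against the level at véraison (horizontal axis, %) for the 4975 gaining regions that overlap a gain over first growth (left) and the 2450 that do not (right). Colour gives the number of regions per hexagon on a log scale, and the dashed line marks a maturity level equal to 2 times the véraison level, near the lower edge of the listed regions. The colour scales of the panels differ. The right panel is concentrated near 0% at véraison, where its median is 3%, against 10% in the left panel.

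Regions that also gained over first growth were higher at both stages than those that did not. The 4975 overlapping regions had a median of 34% at maturity and 10% at véraison, a gain of 23 points. The 2450 others had 21% at maturity and 3% at véraison, a gain of 17 points. The overlapping regions had the larger median gain on 19 of 19 chromosomes, but among regions that differed by at least 21 points both medians were 31 points. The mature library enters both the gain and the overlap, and all chromosomes were read from the same libraries. The count of chromosomes is therefore a description only. The overlapping regions were also longer, with a median of 57 bp against 50 bp, and fewer of them were listed at 0% at véraison (6.53% against 24.0%).

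Overlap with a gain over first growth covered 67.0% of the gaining regions (exact 95% interval 65.9 to 68.1%), compared with 33.7% of all CHH regions of the table and 18.6% of those lower at maturity. Seen from the other side, the gaining regions touched 3.59% of the 143497 CHH regions listed as higher at maturity than at first growth, which make up 99.4% of the CHH regions listed for that pair of stages. Nearly all CHH regions listed for these stages thus read higher in the mature library than in the first growth library, and how far bisulfite conversion differed between them was not tested. Intervals of shares here cover counting error over regions only, and neighbouring regions are not independent.

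The overlap share went with the level at véraison, with the level at maturity and with length. Of the 914 regions listed at 0% at véraison, 35.6% overlapped a gain over first growth (32.5 to 38.8%). The share was 54.7% for regions at 1 to 5%, 70.2% at 6 to 10%, 82.0% at 11 to 20% and 89.5% at 21 to 50% (87.7 to 91.2%). By length it was 57.7% among regions of 41 to 50 bp and 93.8% among the 81 regions longer than 150 bp. Since the absence of an overlapping region can also come from low coverage at first growth, which is unknown, the 2450 regions are not shown to lack a gain over first growth.

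**Figure D2:**
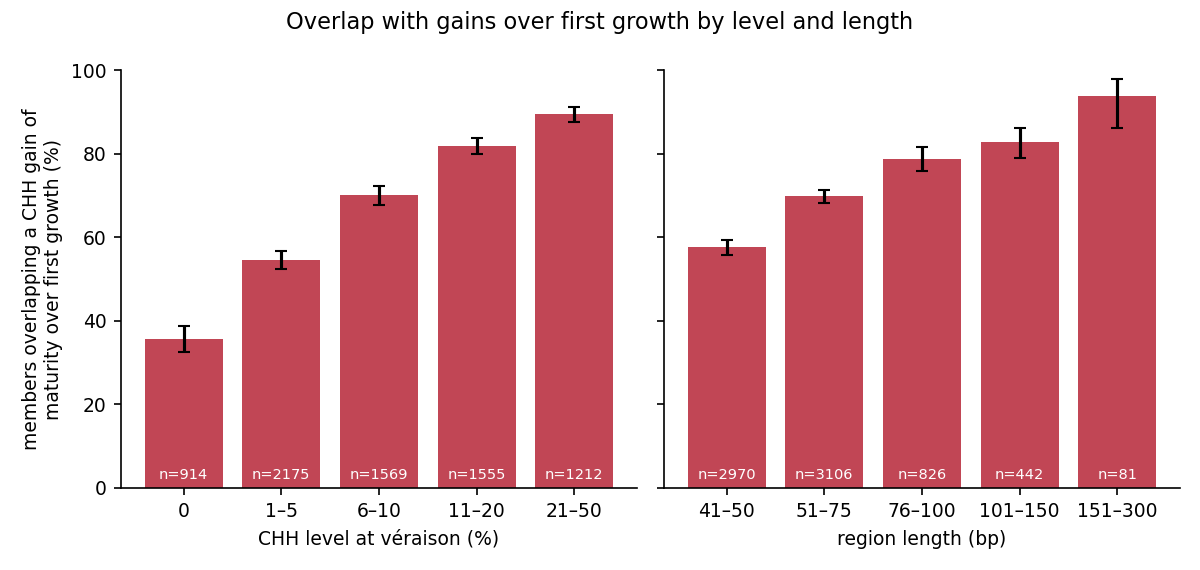
Share of gaining CHH regions that overlap a CHH gain of maturity over first growth (vertical axis, %), by level at véraison (left, %) and by region length (right, bp). Bars are shares, error bars exact 95% intervals over regions, and n is the number of regions; the share is 35.6% at a véraison level of 0% and 89.5% at 21 to 50%.

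In most overlapping regions the first growth level of the overlapping row was low and read below the véraison level. A level well below maturity was a condition of the overlap. In that table the higher level was at least 1.90 times the lower where the lower was at least 10%. No lower level exceeded 50%, so low first growth levels here are a description only. In the 4975 overlapping regions, the overlapping row of the other table gave a median of 7% at first growth (quartiles 3 and 13), and the medians in the regions themselves were 10% at véraison and 34% at maturity. The first growth level was below the véraison level in 3212 regions, equal in 565 and above it in 1198. Region bounds differ between tables, which limits this comparison. For the same mature library, the levels of the overlapping rows differed by a median of 3 points (upper quartile 8). The overlapping rows also read that library lower, at a median of 31% against 34%. These counts therefore do not show that the regions themselves were lower at first growth than at véraison.

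The bounds were identical in 177 regions, and there the mature level was the same in both tables in 177 of 177. In these regions the medians were 2% at first growth (quartiles 0 and 6), then 3% at véraison (0 and 7) and 24% at maturity (14 and 39). First growth was below véraison in 68, equal in 57 and above it in 52, and the levels of these stages lay within 5 points of each other in 165 (93.2%). All 177 were listed as higher at maturity than at each of the earlier stages, so levels well below maturity at both were a condition of listing. The closeness of first growth and véraison is therefore a description only. Identical bounds may also favour places where these stages were alike, so the 177 do not stand for all members.

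The longest of the 177, of 129 bp on chromosome 1 from 11023106 to 11023234, was at 2% at first growth, then 1% at véraison and 14% at maturity. On chromosome 4, from 10475603 to 10475726, the levels were 21%, 16% and 49% at first growth, véraison and maturity. On chromosome 9, from 11399730 to 11399849, they were 0%, 0% and 64% in the same order of stages. A region on chromosome 5 that lies in a gene model, from 21347924 to 21348034, had 5%, 4% and 80% at these stages. These 4 regions were chosen after their values were seen. By their listing, each had its highest level in the mature library. Their levels at the earlier stages lay within 5 points of each other.

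**Figure D3:**
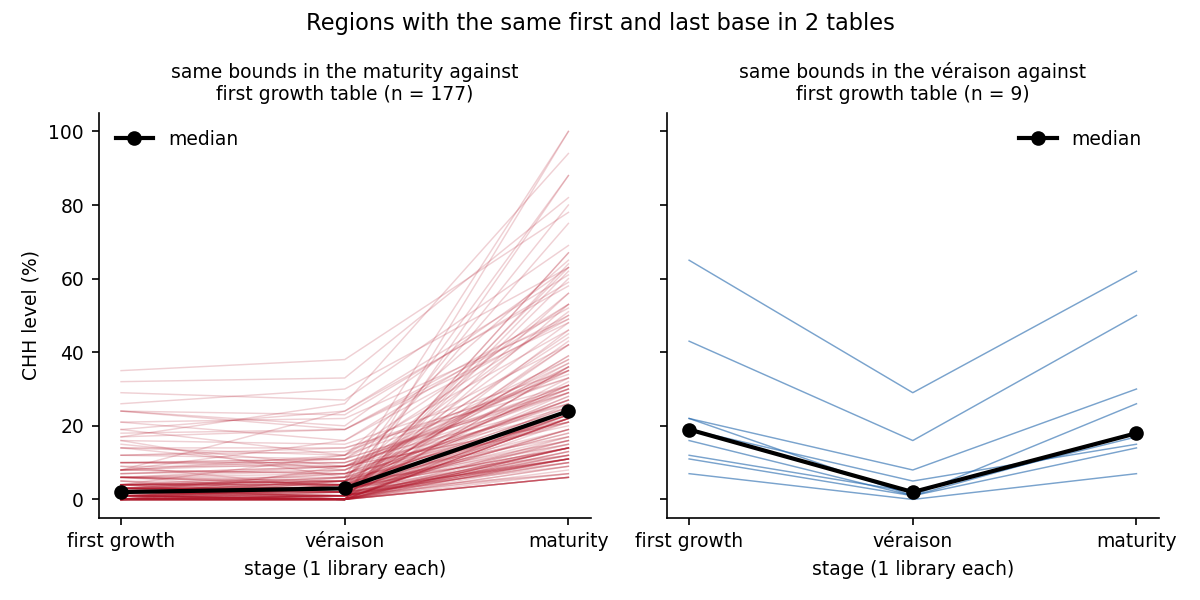
CHH level (vertical axis, %) at first growth, véraison and maturity in gaining regions with the same first and last base in 2 tables. Each thin line is 1 region and the black line the median. On the left, 177 regions (medians 2%, 3% and 24%) mostly differ little between first growth and véraison. These 177 were listed as higher at maturity than at both earlier stages, which keeps both of those levels low. On the right, 9 regions (medians 19%, 2% and 18%) were lower at véraison than at first growth and maturity.

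A smaller group touched a region listed as a CHH gain of véraison over first growth. Of the 7425 regions, 1168 (15.7%) did; of all CHH regions of the table, 56.9% did. Overlap with any CHH region of véraison against first growth, in either direction, fell to 6.88% of the gaining regions when it had to cover 0.5 of the shorter region, against 16.9% at 1 bp. Bounds matter here: in the 1253 gaining regions with such an overlap, the level of the same véraison library differed between the tables by a median of 10 points (upper quartile 19). Touching a listed gain therefore does not show that the region itself was higher at véraison, and the 59 that touched one without a gain over first growth at maturity had medians of 10% at first growth and 9% at véraison. Such gains make up 99.6% of the CHH regions listed for véraison against first growth. The tables of maturity against véraison and véraison against first growth share the véraison library, which is low by rule in the gaining regions and high in the others, so this contrast is a description only. The 1109 that overlapped gains over first growth at both véraison and maturity had medians of 9% at first growth, then 18% at véraison and 45% at maturity. By contrast, the 3858 regions with a gain over first growth at maturity but no listed difference at véraison had 6%, 8% and 31% at the same stages. The first growth value is taken from the table of maturity against first growth in both cases, where its being below maturity was a condition of the overlap. A further 2314 regions (31.2% of the gaining ones) overlapped no CHH gain of maturity over first growth. Nor did they overlap any CHH region listed for véraison against first growth. Their medians were 21% at maturity and 3% at véraison. Of the 16398 regions lower at maturity, 3944 (24.1%) had neither overlap.

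Some regions were lowest at véraison. Of the gaining regions, 86 (1.16%) touched a CHH region with a loss between first growth and véraison; of all CHH regions of the table, 0.369% did. These 86 regions touched 84 of the 629 CHH regions listed as lower at véraison than at first growth, or 13.4%. Both comparisons use the véraison library, which is low by rule in the gaining regions, so this overlap is a description only. Leaving out 1 region that touched rows in both directions, the 85 others had medians of 27% at first growth (from the overlapping row), then 5% at véraison and 30% at maturity. At maturity 55 of the 85 were at or above the first growth level. They lay on all 19 chromosomes, and 11 of the 85 overlapped a gene model.

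In 9 regions the bounds were the same in the table of véraison against first growth, and all 9 were higher at first growth than at véraison. One of 163 bp on chromosome 14, from 518992 to 519154, had 22% at first growth, then 1% at véraison and 26% at maturity. On chromosome 18, from 27217982 to 27218024, the levels were 65%, 29% and 62% in that order of stages. The region from 1733475 to 1733519 on chromosome 12 was at 43%, 16% and 50%. The mature level was above the first growth level on chromosomes 14 and 12 and under it on chromosome 18. Chromosome 17 held the one region of the 9 that overlapped a gene model, from 10497721 to 10497766, at 7%, 0% and 7%.

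Among other regions lowest at véraison, one on chromosome 9, from 20649955 to 20650041, was at 83% at first growth, then 20% at véraison and 89% at maturity. One on chromosome 13, from 20924024 to 20924138, had 90%, 12% and 59%. The first growth value of these is from an overlapping row with other bounds. These examples were chosen after their values were seen. A CHH region lower at maturity than at first growth was overlapped by 3 of the 7425 gaining regions (0.0404%). Of the 16398 regions lower at maturity, 140 (0.854%) overlapped one. Both comparisons use the mature library, which is high by rule in the gaining regions, so this is a description only. Among the 3, the largest difference from first growth was on chromosome 10, from 1015898 to 1015970 in a gene model. It had 100% at first growth, then 19% at véraison and 47% at maturity.

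The region with the smallest p on each chromosome gave 19 examples. Their levels ran from 20 to 80% at maturity (median 51%) and from 0 to 39% at véraison (median 12%). All 19 overlapped a gain over first growth, against 67.0% of all gaining regions. There the first growth level was 1 to 35% (median 14%), and the overlap required it to be below maturity. Smallest p values can favour long and well-covered regions, and these were 62 to 204 bp long. Of the 19, 3 overlapped a gene model.

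The smallest p of all belonged to a region outside gene models on chromosome 17, from 1356878 to 1357043, with 43% at maturity and 1% at véraison (p = 1.97404e-39 in the authors' deposited table, with no adjustment stated). At first growth the overlapping row gave 1%. On chromosome 12, from 501026 to 501170 in a gene model, the level was 20% at maturity and 0% at véraison, with 1% at first growth (p = 3.20701e-34, likewise from the authors' deposited table). A gene model on chromosome 1 held the region from 5335428 to 5335522, where it was 80% at maturity and 16% at véraison, with 19% at first growth. These 3 regions were about as low at first growth as at véraison.

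On chromosome 6, from 5244085 to 5244199, the level was 72% at maturity and 5% at véraison, and the overlapping row gave 21% at first growth. On chromosome 18, from 16147173 to 16147315, it was 74% at maturity and 12% at véraison, with 17% at first growth. On chromosome 3, from 7781663 to 7781792, it was 68% at maturity and 34% at véraison, with 12% at first growth. The last of these read intermediate at véraison, whereas the others read lowest then. The first growth values are from rows with other bounds. None of these regions overlapped a CHH region listed as differing between first growth and véraison, so the order of those stages is not shown.

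The widest single gains ran over most of the scale, in regions whose depth is unknown. Among regions of at least the median length that overlap a gain over first growth, the largest outside gene models lay on chromosome 6, from 15748386 to 15748447, with 100% at maturity and 5% at véraison. The overlapping row gave 12% at first growth. In gene models the largest was on chromosome 4, from 4499910 to 4499991, at 90% at maturity and 0% at véraison, with 0% at first growth. On chromosome 6, the region from 6247380 to 6247449 overlapped a gene model, and the level was 95% at maturity and 15% at véraison, with 9% at first growth. For the region from 20803118 to 20803174 on chromosome 1, in another gene model, it was 78% at maturity and 0% at véraison, with 5% at first growth.

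Among those without such an overlap, the regions from 28338565 to 28338618 on chromosome 18 and from 10936127 to 10936206 on chromosome 1 were each listed at 100% at maturity and 0% at véraison. The authors' deposited table gives p = 0.000420168 on chromosome 18 and p = 0.000999001 on chromosome 1, so these full-scale gains were not among those with the smallest p. Those in gene models were led by chromosome 18, from 8654281 to 8654337 (86% at maturity, 0% at véraison), and chromosome 7, from 4178929 to 4178996 (73% and 0% at the same stages). The longest gaining region, of 227 bp on chromosome 19 from 544680 to 544906 in a gene model, moved less, with 24% at maturity and 4% at véraison.

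Gains were spread over the whole genome. Each of the 19 chromosomes held between 325 and 562 gaining regions, or 15.3 (chromosome 8) to 21.5 (chromosome 15) per Mb of the span covered by the tables. They made up 28.5% (chromosome 7) to 34.4% (chromosome 10) of the CHH regions of the table. The share overlapping a gain over first growth lay between 62.2 and 70.4%, and the median gain between 18 and 24 points. With each chromosome cut into 5 equal parts, the middle part held 18.0% of the gaining regions and 17.0% of those lower at maturity, and the part before it held 21.6% and 21.8%.

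In windows of 100000 bp, 3262 of 4271 windows (76.4%) held a gaining region, with a mean of 1.74 per window. The window with most, on chromosome 15 from 17700000 to 17799999, held 10, at 19 to 77% at maturity and 0 to 22% at véraison, and 10 regions lower at maturity lay in the same window. On chromosome 1, from 7000000 to 7099999, there were 9 gaining regions, all 9 overlapping a gain over first growth, and 3 lower ones. A second window on chromosome 1, from 8400000 to 8499999, also held 9, beside 5 lower ones. The same number lay on chromosome 12, from 4900000 to 4999999, beside 4 lower ones, and on chromosome 15, from 13300000 to 13399999, beside 10 lower ones. Each of these windows thus held regions of both directions.

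Between close neighbours the direction was mostly shared. The nearest other CHH region of the table was also higher at maturity for 69.0% of 478 gaining regions that had it within 100 bp without overlap (64.7 to 73.2%). For regions lower at maturity with a neighbour that near, it was higher in 11.6% of 1242. Overlapping regions, which share cytosines, went the same way in 98.8% of 658 cases. Beyond 100 bp and up to 500 bp the nearest region was higher for 34.0% of gaining regions and 28.5% of lower ones, and from there to 2000 bp for 29.2% and 30.6%, around the 31.2% of the whole table.

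Joining gaining regions within 100 bp gave 6913 separate regions, of which 6444 (93.2%) were a single row. The longest joined region spanned 324 bp, and the most rows in one was 4. On chromosome 10, 4 rows from 13381552 to 13381770 averaged 67.0% at maturity and 11.9% at véraison, weighted by length. On chromosome 3, 4 rows from 8425065 to 8425290 averaged 93.0% at maturity and 43.7% at véraison. Of 469 joined regions with several rows, 359 overlapped gains over first growth in every row, 60 in none and 50 in some.

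**Figure D4:**
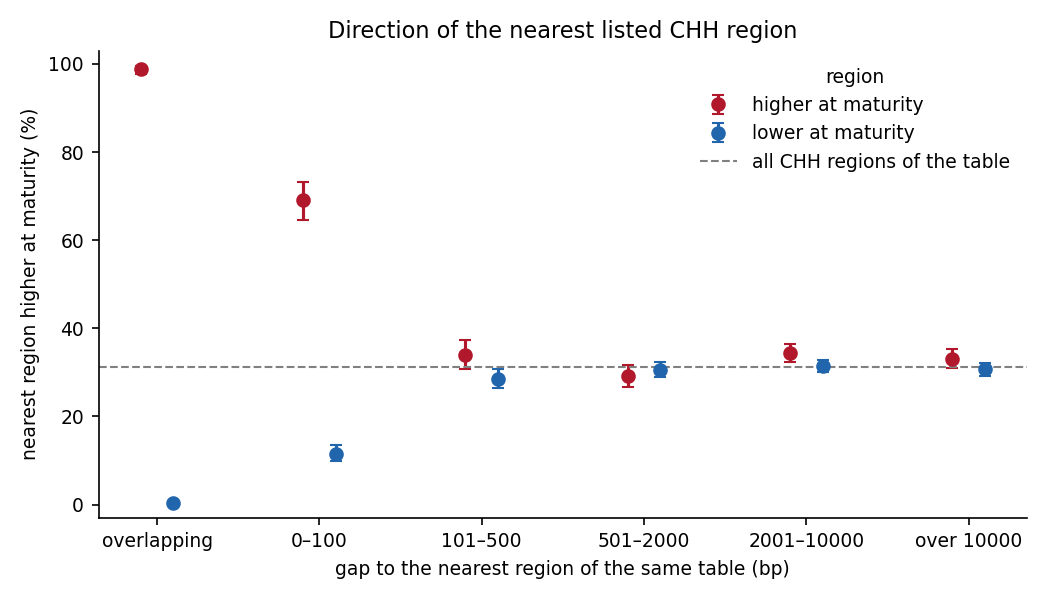
Share of nearest listed CHH regions that were higher at maturity than at véraison (vertical axis, %), by the gap to that neighbour (horizontal axis, bp), for regions higher and lower at maturity. Points are shares with exact 95% intervals over regions, and the dashed line is the 31.2% of the whole table; the sets part within 100 bp (69.0% against 11.6%) and lie close together beyond that.

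Few gaining regions lay in gene models, at a share near that of the whole table. A gene model was named for 824 of the 7425 (11.1%, interval 10.4 to 11.8%), compared with 10.6% of all CHH regions of the table and 10.4% (9.96 to 10.9%) of those lower at maturity. Regions in gene models had medians of 23% at maturity and 4% at véraison, against 30% and 8% for regions outside them. Of the 532 gaining regions at 10% or less at maturity, 28.2% were in gene models, compared with 6.82% of the 308 above 80%.

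Regions without an overlapping gain over first growth were in gene models more often than those with one, 13.9% (12.6 to 15.4%) against 9.71% (8.90 to 10.6%) for the overlapping ones, and on 17 of 19 chromosomes. Within classes of maturity level the difference was smaller, and the intervals of the pair overlapped in each class. At 10% or less the shares were 25.3% of overlapping and 29.5% of other regions, and at 11 to 20% they were 11.1% and 13.9%. Among regions at 21 to 40% they were 9.47% and 10.4%, and above 40% they were 8.08% and 7.81%. By length, the difference was also seen among the shortest regions, of 41 to 50 bp, at 11.2% (9.75 to 12.8%) of overlapping and 15.9% (13.9 to 18.1%) of other regions. At 51 to 75 bp it was 9.31% (8.12 to 10.6%) against 12.7% (10.6 to 15.0%). In longer regions the intervals overlapped, with 7.83% of overlapping and 9.71% of other regions at 76 to 100 bp, and 8.60% and 6.17% above that.

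The gaining regions fell in 705 gene models, 611 of them with 1 region and 16 with 3 or more. The median length of these models was 9.54 kb, against 8.31 kb for models with a region lower at maturity; longer models can hold more regions. A CHH region lower at maturity lay in 209 of the 705 as well, which is 29.6% of models with a gain, where 13.4% of all 9490 listed models held such a region. The 209 are 16.4% of the 1274 models with a loss, where 7.43% of all listed models held a gain. The part of model length in this was not tested. A CHG region higher at maturity lay in 95 of the 705 (13.5%) and a lower one in 118 (16.7%), near the 13.0% and 14.9% of all listed models.

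The most gaining regions in one model were 5. In VIT_04s0008g04010.t01 (chromosome 4, 3339976 to 3350091, plus strand), they had 16, 30, 26, 27 and 79% at maturity and 6, 9, 6, 0 and 25% at véraison, from the start of the model onward, beside 1 region that was lower at maturity. In VIT_14s0030g01060.t01 (chromosome 14, 5431652 to 5466138, plus strand), they had 25, 44, 35, 77 and 52% at maturity and 5, 1, 5, 35 and 7% at véraison, beside 4 lower ones. In each model 2 of the 5 overlapped a gain over first growth. In the second model the 5 lay in 2 groups, from 5436671 to 5436855 and from 5446885 to 5447019. What these models encode is not used here.

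Within 3 kb of gene models, gains were denser upstream than downstream, except in the nearest 500 bp. Within 3 kb of the gene models listed in the 9 tables there were 828 midpoints of gaining regions upstream and 609 downstream, a ratio of 1.36, with more upstream on 17 of 19 chromosomes. For regions lower at maturity the ratio was 1.51, with more upstream on 19 of 19. The ratio was 1.42 for gaining regions that overlap a gain over first growth and 1.23 for the others. Density of gaining regions peaked between 1000 and 1500 bp upstream, at 0.0371 midpoints per kb and model. It was 0.0171 in the 500 bp next to the start and 0.0188 in the 500 bp next to the end. Models enter this set because some region of the 9 tables overlaps them, so the density inside models (0.00912 per kb) is not comparable with that of all genes.

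**Figure D5:**
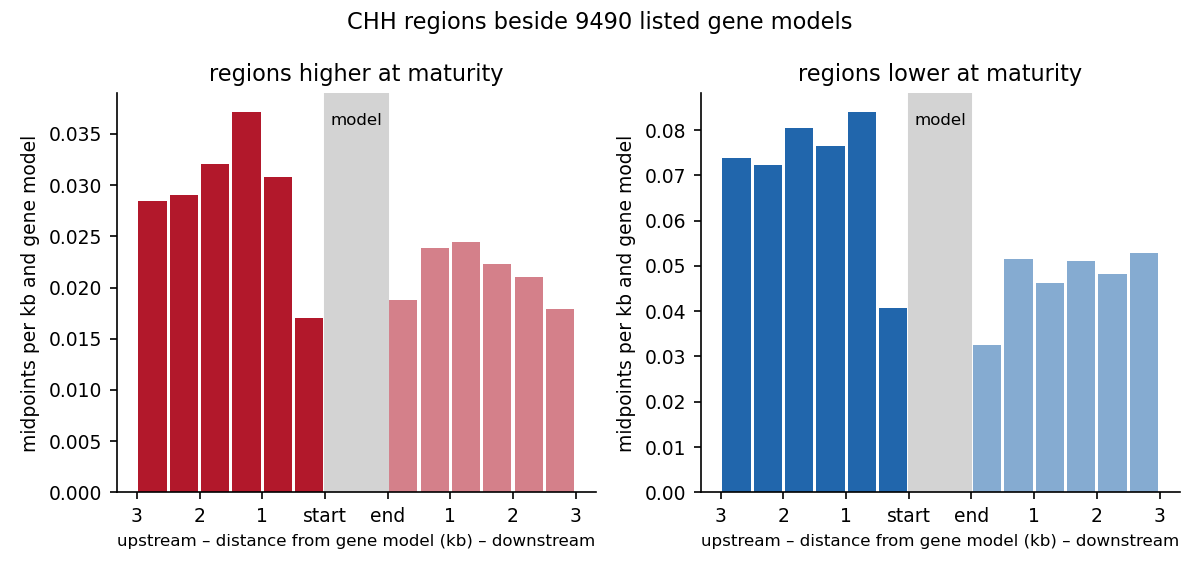
Density of CHH region midpoints (vertical axis, per kb and gene model) in bins of 500 bp over 3 kb upstream and downstream of the listed gene models, for regions higher at maturity (left) and lower (right); the vertical scales differ. Bars are counts divided by length and number of models; in both panels the bins next to the model are the lowest on the upstream side, and upstream bins are mostly higher than downstream bins.

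In the other cytosine contexts, most gaining CHH regions had no listed counterpart. Only 48 of the 7425 (0.646%) overlapped a CHG region of maturity against véraison, and 26 (0.350%) overlapped a CG region. Over all CHH regions of the table the shares were as low, at 0.424% for CHG and 0.294% for CG. Among gaining regions with a difference of at least 21 points the CHG share was 0.206%. These contexts are read from the same 2 libraries, and a region missing there may lack coverage or CHG or CG sites. Where a CHG region was listed, it was nearly always higher at maturity: 46 gaining regions overlapped a CHG gain and 2 a CHG loss, compared with 49.7% higher among all CHG regions of that pair of stages. Among CHH regions lower at maturity, 4 overlapped a CHG gain and 49 a CHG loss. The 46 touched 1.27% of the 3634 CHG gains.

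The CHG gains touched by these 46 regions had medians of 42% at maturity and 14% at véraison, and the 46 CHH regions had 13% and 2%. CHG gains were touched by 29 of the 2450 regions without an overlapping gain over first growth (1.18%, interval 0.794 to 1.70%) and by 17 of the 4975 with one (0.342%, 0.199 to 0.547%). Of the 46, 13 were in gene models. CG gains were overlapped by 20 gaining CHH regions and CG losses by 6, compared with 53.1% higher among all CG regions of the pair; CHH regions lower at maturity overlapped CG gains in 7 cases and CG losses in 37. The 20 touched 1.51% of the 1326 CG gains.

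In all, 62 gaining CHH regions overlapped a CG or CHG gain, and 4 overlapped both. One of the 4 was the chromosome 17 region with the smallest p, from 1356878 to 1357043. There the CG region from 1356893 to 1357354 had 64% at maturity and 30% at véraison, and the CHG region from 1356892 to 1357192 had 64% at maturity and 14% at véraison, while CHH had 43% and 1%. All 3 contexts were thus higher in the mature library at this place.

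On chromosome 14, the CHH region from 29577303 to 29577391 had 34% at maturity and 13% at véraison, the CG region from 29576963 to 29577367 had 41% and 20%, and the CHG region from 29576962 to 29577325 had 31% and 10%. The largest CHH gain with a CG gain was on chromosome 5, from 1165469 to 1165524, at 94% at maturity and 36% at véraison, where CG was at 37% and 14%. The opposite direction also occurred: on chromosome 1, from 9540982 to 9541042, CHH was at 69% at maturity and 18% at véraison, while the CG region from 9540910 to 9540987 was at 38% at maturity and 88% at véraison. The examples on chromosomes 14 and 1 were chosen after their values were seen.

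At maturity against first growth, the CG regions touched had about the direction of their whole table. Gaining CHH regions overlapped 48 times with a CG region lower at maturity than at first growth and 13 times with a higher one, so that 21.3% of these overlaps were with a higher region, near the 20.7% higher among all CG regions of that pair. For CHG they overlapped 32 times with a region higher at maturity than at first growth and 9 times with a lower one (78.0% with a higher one), compared with 39.8% higher among all. For these stages, CHH regions lower at maturity overlapped a higher CG region in 1 case and a lower one in 231. With CHG the counts were 13 and 99. At véraison against first growth, CHG regions touched were lower at véraison for 39 gaining CHH regions and higher for 12, compared with 40.5% higher among all. CG regions touched were lower at véraison for 58 and higher for 8 (12.1%), compared with 18.8% higher among all. The tables with maturity or véraison share those libraries with the rule, so these counts describe the same places and are no independent check.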

How the data were processed

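DNA of 3 berry libraries, 1 per stage, was bisulfite-sequenced. Per the submitters' processing notes BSMAP 2.73 was used. Build, annotation, region caller and any coverage filter: not given in the sources used here. For this series the authors deposited 9 tables of regions with average methylation levels as fractions, rounded in steps of 1 percentage point, which were multiplied to percent. The deposited p-values are described per the file headers as a chi-square statistic, but all lie at or below 0.00999823 and were read as p-values between 2 libraries, with no adjustment stated.

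No counts or coverage were used, so depth is unknown and levels carry no interval. Differences are maturity minus véraison. With 1 library per stage no test was made. Shares have exact Clopper-Pearson 95% intervals, which cover counting error over regions. Where several rows overlapped a region, the row sharing most bases gave the other level. Overlap search was tested on simulated regions. Work was done in Python 3.11.15 with pandas 2.3.3 and scipy 1.17.1.

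Of 9490 gene model identifiers, 0 matched a RefSeq list of 29591 genes, whose build may differ from that of the tables, so no names or functional lists were used, and no sequence was read. Coordinates are as deposited; whether starts count from 0 or 1 is not given. The regions, splits and lists were chosen with earlier results of these data known. Named regions were the smallest p per chromosome, the 3 largest gains per class of overlap and gene model among regions of at least the median length (54 bp), the 5 largest gains with a higher CG or CHG region, the 3 longest regions and the 3 fullest windows. Windows tied with the last of these are given as well. A selection of the named regions is printed. At most 2 gene model identifiers were named. Examples picked otherwise are marked as such or are members with identical bounds or lowest at véraison.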

Additional observations from a re-analysis of the deposited data

How the results depend on the processing

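Each filter was applied to the gaining CHH regions, with the other tables whole. Of 51 alternative values, 31 stayed within the range set for each result and 20 moved. Among the 31 was the median gain on the log2 scale (0.01 added to each fraction), at 1.75. The 20 that moved follow. Keeping p at or under the table's largest divided by 10 gave 69.8% overlapping a gain over first growth and a median first growth level of 8%. Keeping differences of at least 21 points left 3889 regions, 76.1% of them overlapping, with a median gain of 31 points, 8.74% in gene models, 0.206% overlapping a CHG region, 22.2% overlapping a CHH region of véraison against first growth, and a median first growth level of 11%. Keeping lengths of at least 56 bp left 3473 regions, 75.5% overlapping, with a median gain of 24 points, and shares of 9.33% in gene models, 0.374% for CHG and 20.9% for véraison against first growth. Requiring an overlap of 0.5 of the shorter region gave 64.0% overlapping a gain over first growth and 6.88% for véraison against first growth, against 16.9% at 1 bp. Leaving out levels of 0% and 100%, an alternative chosen after seeing the data, gave 71.4%, 10.1% in gene models and a median first growth level of 8%. No paired analysis was possible because there is 1 library per stage and no test. Depth is unknown, so levels of 0% or 100% in short regions may rest on few reads.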
